A study of Mus musculus with 4 samples.

Results

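The Ly6, Slurp1 and related genes are a set of 8 mouse genes, namely Slurp1, Ly6d, Ly6k, Ly6m, Ly6e, Ly6a, Lynx1 and Lypd3, that encode proteins of the Ly6/uPAR family. Their probe sets were taken as all those annotated to a single symbol among the 8, which gave 10 of the 45037 non-control probe sets of the array. These covered 7 of the 8 genes, since no probe set carried Ly6a as its only symbol. The genes were chosen by their signals in the Ezh2cKO and WT arrays, so the differences between the genotypes are given for them as a description and were not tested. The signals came from 4 Affymetrix expression arrays of basal epidermal cells that were sorted from mouse skin at embryonic day 16. There were 2 arrays of Ezh2cKO embryos and 2 of WT embryos, each numbered 1 and 2, and mice of both genotypes were of mixed C57 and CD1 background. Ezh2cKO stands for a conditional knockout of Ezh2, the catalytic subunit of Polycomb repressive complex 2, and the Cre line that deleted it is not given in the sources used here. Whether the arrays of a genotype came from separate embryos or from pools is not stated either, so a p-value here reflects no more than how far these arrays lay apart, and that spread can be technical.

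Ly6/uPAR proteins share a small domain in which disulfide bonds hold 3 loops, called the LU or three-finger domain. Most of them sit on the cell surface by a GPI lipid anchor, while others are secreted. In mammals several members bind nicotinic acetylcholine receptors, others are surface antigens by which stem and immune cells are sorted, and some are known products of keratinocytes. Most of the mouse genes lie side by side on chromosome 15. Polycomb repressive complex 2 methylates histone H3 at genes that are kept silent, often at DNA rich in CpG, the pair of bases C and G on the same strand.

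Lypd3 was the only one of the 8 genes with an entry in the RefSeq promoter table, and its promoter is shown for its content of CpG. It lies on the plus strand of GRCm38.p6 at chr7:24636320-24636619, from 250 bases before the start of the gene to 50 after it, and each CpG is in capitals.
Lypd3 promoter: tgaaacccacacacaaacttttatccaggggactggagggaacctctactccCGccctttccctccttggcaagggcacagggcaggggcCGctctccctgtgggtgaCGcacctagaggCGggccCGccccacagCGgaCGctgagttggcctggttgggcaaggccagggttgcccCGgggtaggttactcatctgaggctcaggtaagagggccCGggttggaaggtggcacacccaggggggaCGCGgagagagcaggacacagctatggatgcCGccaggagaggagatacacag
This stretch held 12 CpG, where the median of all 32851 promoters in the table was 7, and 60.4% of promoters held fewer. At least 1 CpG was present in 94.6% of them. On either strand it held no match to TGANTCA, the AP-1 motif that 7.8% of promoters held, and none to TATAAA (13.6%). It had 2 matches to CACCC, the core of Klf motifs, which 57.5% of promoters held at least once.

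Ezh2 itself had a signal of 661 and 1308 on the Ezh2cKO arrays, against 3336 and 3603 on the WT arrays (log2 difference -1.88, SE 0.34), so the labels and the targeted gene went the same way. Its limma adjusted p was 0.999979 over all probe sets. No probe set of the 27022 that passed the intensity filter (a mean signal of at least 73.2) was called in limma at an adjusted p under 0.05 (0%). At an unadjusted p under 0.05, 0.348% were higher and 0.0592% lower in Ezh2cKO. These were 110 probe sets together, and with the array number as a block there were 1353 of the 27022. The latter is about the share that a threshold of 0.05 passes where there is no difference at all. So few passed without the block that a count of 0 in a short list says little. The arrays numbered 2 had higher median signals (148 in Ezh2cKO and 137 in WT) than those numbered 1 (87.4 and 91.6), so each difference is also given within a number. Basal keratinocyte markers had summed signals between 111391 and 115608 in Ezh2cKO, against 107385 and 119653 in WT, and 11 dermal fibroblast markers summed to 67900 and 80520 in Ezh2cKO, against 68425 and 77195 in WT. Dcn, a proteoglycan gene of fibroblasts, was among the latter at 17210 and 15027 in Ezh2cKO, against 15428 and 13276 in WT. In such bulk samples, fewer cells of a type cannot be told apart from less RNA per cell.

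In the Ezh2cKO arrays the members were at most modestly higher by their brightest probe sets over the filter. The dimmer Lynx1 probe set, which lay below the filter, differed more (2.11-fold higher). Log2 differences and folds use log2(signal + 16), and the added 16 shrinks the folds of dim genes. By the brightest probe set of each gene that passed the filter, the log2 difference between Ezh2cKO and WT lay between -0.13 for Ly6k and 0.51 for Slurp1, with a median of 0.28, where the median of all 12703 genes was -0.004. Both Ezh2cKO arrays lay above both WT arrays for 1 of the 7 genes, Slurp1, and below them for 0 of 7, where 8.52% of all genes lay above and 8.39% below. For the other genes the groups overlapped. Within number 2 the Ezh2cKO signal was the higher for 7 of 7 genes (46.8% of all genes), and within number 1 for 4 of 7 (52.8% of all genes). The same 4 genes, Slurp1, Ly6d, Lynx1 and Lypd3, were thus higher within both numbers, as were 25.2% of all genes. Since these values chose the genes, no more is read from the counts. For 5 of the 7 genes the difference between the genotypes was smaller than the pooled SD between the arrays of a genotype, and the exceptions were Slurp1 and Ly6m. Ly6m had a WT mean of 69.3, below the filter's level, and passed the filter only through its Ezh2cKO mean of 89.7, so nothing is read from its difference.

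**Figure D1:**
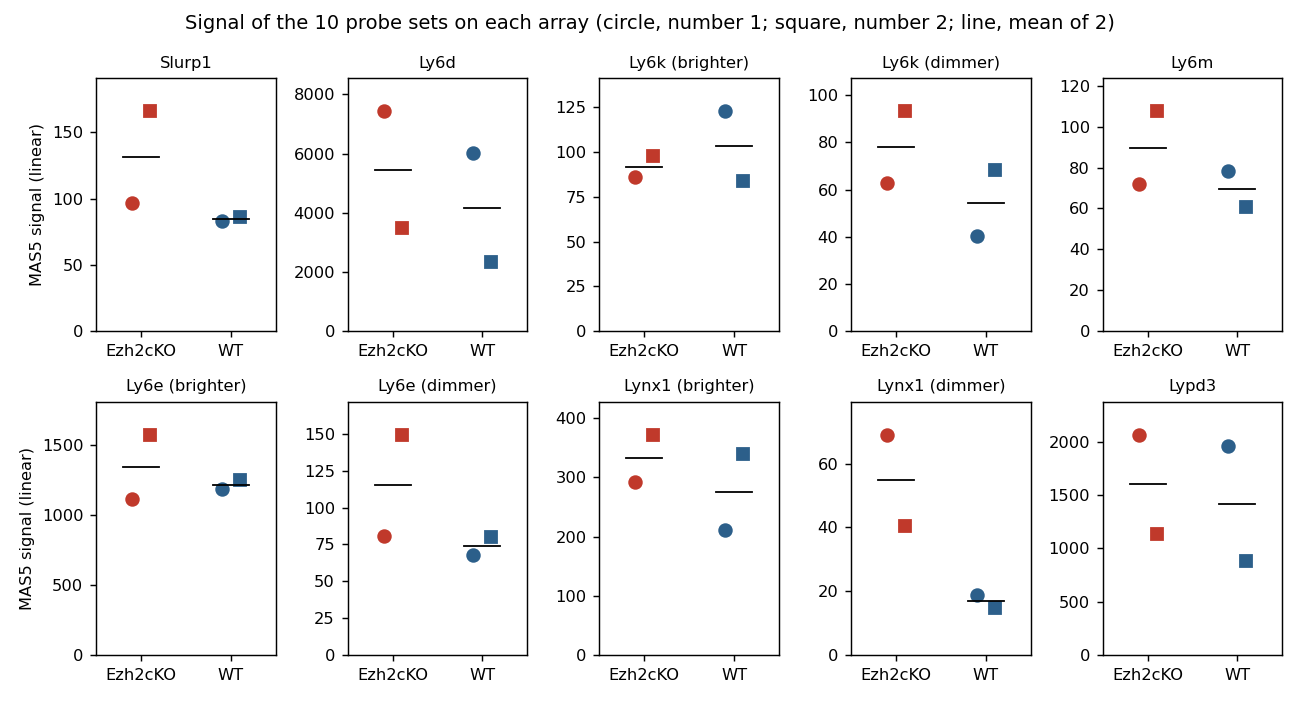
MAS5 signal (vertical axis, linear, from 0) of each of the 10 probe sets on the Ezh2cKO arrays (red, left) and the WT arrays (blue, right), with a line at the mean of 2 arrays. Slurp1, the dimmer Ly6e probe set and the dimmer Lynx1 probe set show no overlap between the genotypes, while Ly6d and Lypd3 differ more between circles (number 1) and squares (number 2) than between genotypes.

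Slurp1 encodes a small secreted LU protein of keratinocytes that acts on the alpha7 nicotinic receptor, and its loss in humans causes a thickening of the skin of palms and soles. Its signal was 96.5 and 166 on the Ezh2cKO arrays numbered 1 and 2, against 82.9 and 86.0 on the WT arrays. The second Ezh2cKO array stood above the other 3, while the first lay only a little above WT. The mean was 131 ± 48.9 in Ezh2cKO and 84.4 ± 2.23 in WT (SD, n = 2 each), a fold of 1.14 within number 1 and 1.78 within number 2. The overall log2 difference was 0.51 and the pooled SD 0.35. The signals lay just above the filter's level, and no detection calls were used, so how far they stood above background is not known.

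Lynx1 encodes a GPI-anchored LU protein that restrains nicotinic receptors in the brain. It had 2 probe sets. The brighter one, of the design type marked x, some of whose probes can also hybridise with other sequences, had 293 and 372 on the Ezh2cKO arrays, against 212 and 339 on the WT arrays. These groups overlapped, with folds of 1.35 within number 1 and 1.09 within number 2. The dimmer one, which lay below the filter, had 69.0 and 40.5 on the Ezh2cKO arrays, against 18.8 and 14.9 on the WT arrays. Here both Ezh2cKO values were above both WT values, by a fold of 2.44 within number 1 and 1.83 within number 2, the widest separation among the 10 probe sets. The size of that difference depends on the pseudocount, since within number 1 the log2 difference was 1.29 at a pseudocount of 16, 1.82 at 1 and 0.68 at 64.

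Ly6d encodes a GPI-anchored surface protein found on keratinocytes and, in mouse bone marrow, on early B cell progenitors. Its signal was 7422 and 3488 on the Ezh2cKO arrays, against 6020 and 2331 on the WT arrays. The groups overlapped, with both arrays numbered 1 above both numbered 2. The fold of Ezh2cKO over WT was 1.23 within number 1 and 1.49 within number 2. The log2 difference of 0.44 was smaller than the pooled SD of 0.87 between the arrays of a genotype.

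Lypd3 encodes C4.4A, a GPI-anchored relative of the urokinase receptor that is known from the suprabasal layers of stratified epithelia. It had 2066 and 1139 on the Ezh2cKO arrays, against 1966 and 878 on the WT arrays. As for Ly6d, the number and not the genotype separated the arrays. The fold of Ezh2cKO over WT was 1.05 within number 1 and 1.29 within number 2, with a log2 difference of 0.22 and a pooled SD of 0.71.

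Ly6e encodes an interferon-inducible surface protein first described on thymocytes. Its brighter probe set, of the type marked s, whose probes can match several transcripts, had 1114 and 1574 on the Ezh2cKO arrays, against 1186 and 1252 on the WT arrays. The WT values lay between those of the Ezh2cKO arrays, with folds of 0.94 within number 1 and 1.25 within number 2. The dimmer probe set had 81.0 and 149 on the Ezh2cKO arrays, against 67.6 and 80.1 on the WT arrays. It showed no overlap, but its lower Ezh2cKO value and its higher WT value were almost the same. Its folds were 1.16 and 1.72.

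Ly6m, a family gene between Ly6k and Ly6e on chromosome 15, had 71.9 and 107 on the Ezh2cKO arrays, against 78.1 and 60.5 on the WT arrays. The groups overlapped, with folds of 0.93 within number 1 and 1.61 within number 2. Ly6k, a gene of the testis that is needed for mouse sperm function, had 2 probe sets whose differences had opposite signs. The brighter one had 86.3 and 97.6 on the Ezh2cKO arrays, against 123 and 84.0 on the WT arrays (log2 difference -0.13). The dimmer one, below the filter, had 62.6 and 93.1 on the Ezh2cKO arrays, against 40.4 and 68.5 on the WT arrays (log2 difference 0.42). Neither separated the genotypes. Ly6a, which encodes Sca-1, a surface marker of mouse haematopoietic stem cells, has no value here.

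**Figure D2:**
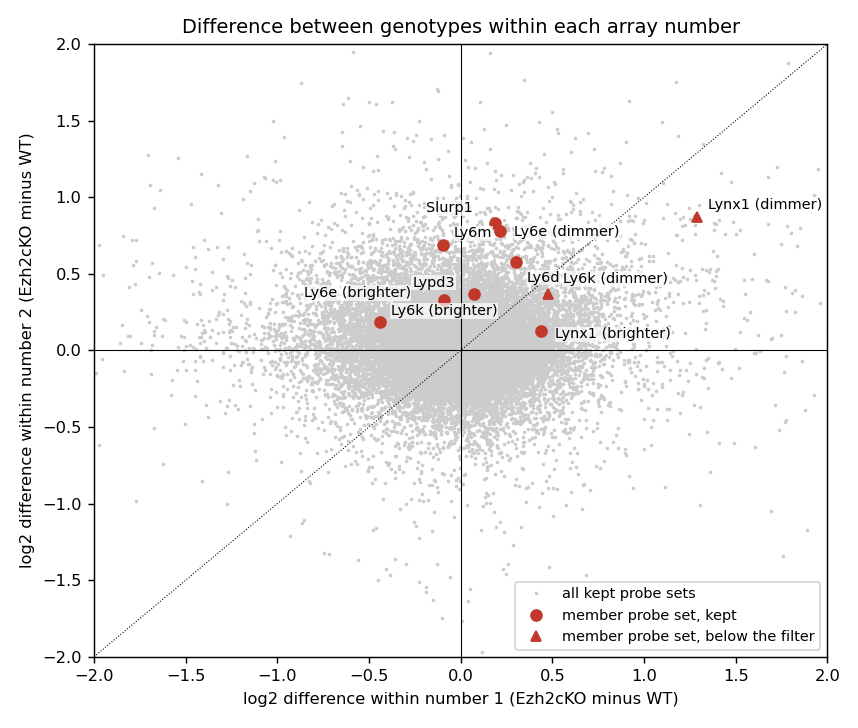
Log2 difference, Ezh2cKO minus WT on the log2(signal + 16) scale, within number 1 (horizontal) and within number 2 (vertical) for the 10 member probe sets (red) and all 27022 kept probe sets (grey, of which 72 lie beyond the axes). All 10 members lie above 0 on the vertical axis and 7 lie right of 0 on the horizontal axis, with a dotted line where the values would be equal.

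The difference within number 2 was larger than that within number 1 for 6 of the 7 genes, the exception being Lynx1, as it was for 5885 of all 12703 genes. The median log2 difference of the 7 genes was 0.07 within number 1 and 0.37 within number 2, where that of all genes was 0.02 and -0.01. Of the 8 member probe sets over the filter, 2 separated the genotypes upwards and 0 downwards, where 7.22% and 7.21% of all kept probe sets did. Over all 10 probe sets, the 2 below the filter included, 3 separated the genotypes upwards (9.11% of all non-control probe sets did) and 7 were higher within both numbers (26% did). None was separated downwards (8.23% did).

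The arrays of the same genotype differed from each other in ways that set the members apart. Ly6d was 2.12-fold higher in number 1 than in number 2 among the Ezh2cKO arrays and 2.57-fold higher among the WT arrays. Lypd3 was 1.80-fold and 2.22-fold higher in number 1 in the same order of genotypes. A signal at least 1.5-fold higher in number 1 than in number 2 in both genotypes was seen for 2.94% of all genes. Slurp1 differed by number in the other direction in Ezh2cKO (log2 0.69, number 2 minus number 1) and hardly in WT (0.05), and the brighter Lynx1 probe set was higher in number 2 in both genotypes (0.33 and 0.64). For Ly6m the same difference was 0.49 in Ezh2cKO and -0.30 in WT. Marker lists gave medians for the same difference of -0.07 in Ezh2cKO and -0.18 in WT for basal keratinocytes, -0.14 and -0.18 for spinous keratinocytes, and -0.72 and 0.14 for late differentiation. The 12 endothelial markers had a median of 1.28 in Ezh2cKO and 0.21 in WT, with summed signals of 7391 and 15392 in Ezh2cKO, against 12982 and 14501 in WT. The part of these cell types in the members' differences was not tested.

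**Figure D3:**
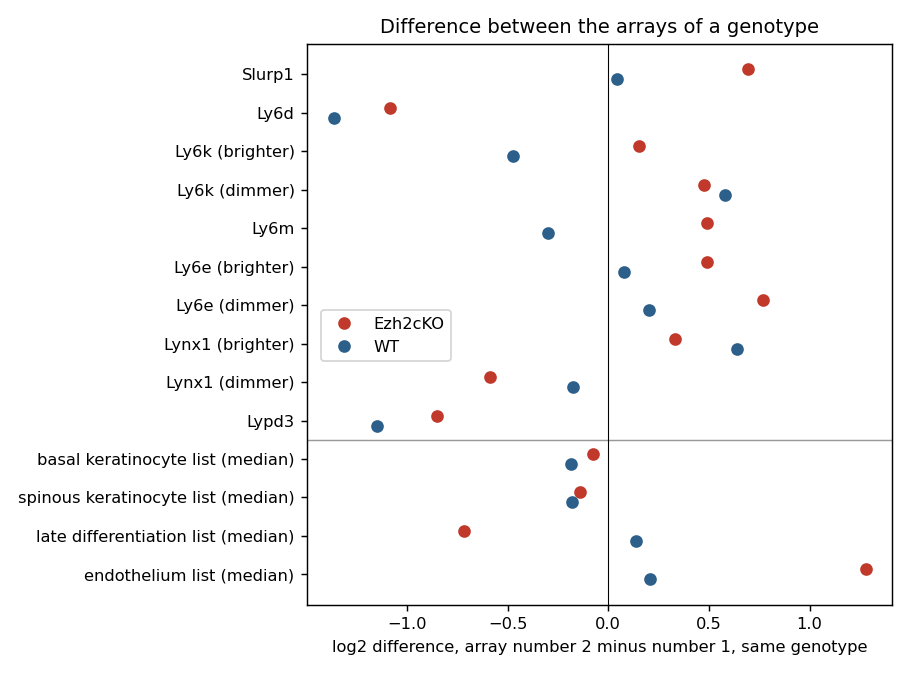
Log2 difference between the arrays of the same genotype, number 2 minus number 1 (horizontal axis), for each member probe set and, below the line, as the median of 4 marker lists, in Ezh2cKO (red) and WT (blue). Ly6d and Lypd3 lie between -0.85 and -1.36 in both genotypes, lower than the basal and spinous medians.

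The pattern of Ly6d, which had both the highest mean signal and the widest range among the members, was set against that of all other genes as the root mean square difference of log2 values centred over the 4 arrays. The nearest of 12696 genes outside the set were Pdlim4, a PDZ and LIM domain protein (0.07), Tmod1, the actin-capping protein tropomodulin (0.09), and Dapl1, a gene known from stratified epithelium (0.11). Pdlim4 had 1600 and 790 on the Ezh2cKO arrays, against 1213 and 522 on the WT arrays, so it too was higher in number 1 and somewhat higher in Ezh2cKO. Lypd3 lay at 0.16 from Ly6d, and 9 genes outside the set lay nearer. With 4 arrays such likeness rests on 3 free values per gene.

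Seen along chromosome 15, differences of both signs were found among the members and their neighbours. The protein-coding genes from 5 before Slurp1 to 5 after Ly6a number 25, of which 7 are members. Of the other 18 genes, 11 had a probe set of 1 symbol and only 3 passed the filter. Of these 11, 2 were higher in both Ezh2cKO arrays (Arc and Them6) and 1 was lower (Ly6i). Of all non-control probe sets 9.11% were higher and 8.23% lower, so no more is read from these counts. Arc, an immediate early gene, had 215 and 533 on the Ezh2cKO arrays, against 14.4 and 214 on the WT arrays, so the separation was by about 1 unit of signal. Ly6i, which lies between Ly6e and Ly6a, had 40.7 and 19.4 on the Ezh2cKO arrays, against 56.7 and 88.3 on the WT arrays, all but the last below the level of the filter. Lypd2, next to Slurp1, was dim and alike in both (11.2 and 17.0 in Ezh2cKO, against 10.4 and 17.9 in WT). Beside Lypd3 on chromosome 7, Ethe1, a mitochondrial sulfur dioxygenase, had 662 and 469 in Ezh2cKO, against 586 and 456 in WT, and Tex101 had no signal over 8.38.

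**Figure D4:**
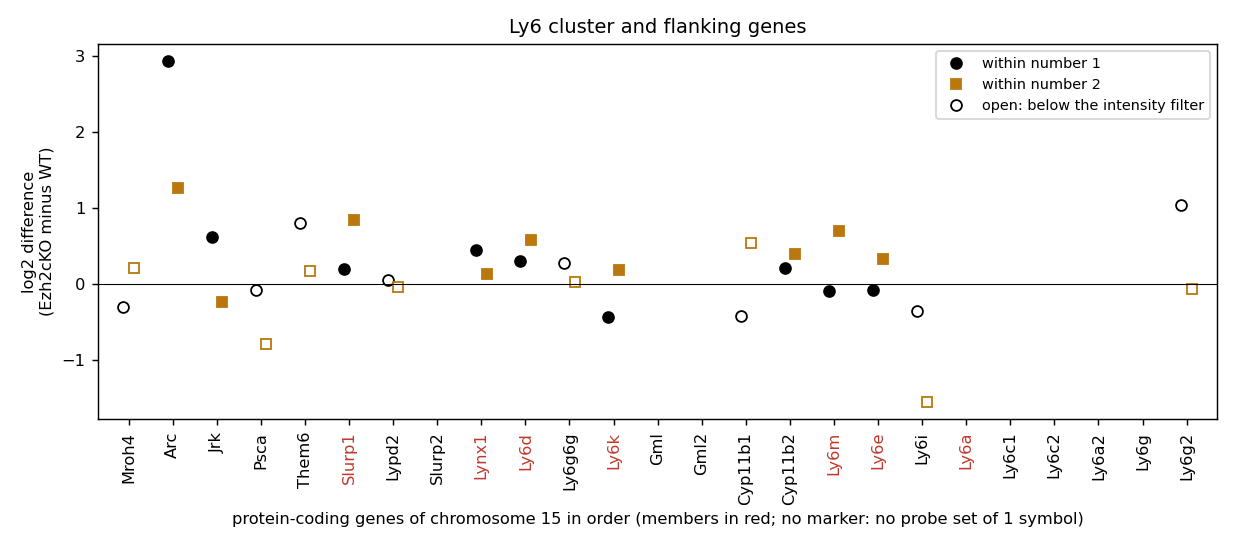
Log2 difference, Ezh2cKO minus WT, within number 1 (black circles) and within number 2 (brown squares) for the protein-coding genes of the Ly6 region of chromosome 15 in their order, with members named in red and open symbols for genes below the intensity filter. Arc lies at 2.93 and 1.26 and Ly6i at -0.36 and -1.56, and the members lie between -0.44 and 0.83.

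The rest of the LU family was counted in the same way. A list of 52 other family genes had 27 on the array, of which 13 passed the filter. In these 13, 2 were higher in both Ezh2cKO arrays (15.4%, where 8.52% of all genes were), 0 were lower, and 0 passed limma's adjusted threshold or an unadjusted p under 0.05. Their median log2 difference was -0.07 within number 1 and 0.15 within number 2. The 2 separated genes were Ly6g6c and Lypd6. Ly6g6c, a family gene of the major histocompatibility region, had 553 and 572 in Ezh2cKO, against 484 and 512 in WT (log2 difference 0.17, SE 0.21), and its 2 dimmer probe sets overlapped between genotypes. Lypd6, which enhances Wnt signalling in zebrafish, had 797 and 753 in Ezh2cKO, against 655 and 750 in WT (log2 0.14, SE 0.20), and its 2 dimmer probe sets overlapped, with log2 differences of 0.18 and -0.04. Lypd6b, its paralog, had 2599 and 1565 in Ezh2cKO, against 1710 and 1468 in WT, and Gpihbp1, which carries lipoprotein lipase across capillary walls, had 885 and 1714 in Ezh2cKO, against 1623 and 1602 in WT. The Gpihbp1 value of Ezh2cKO number 1 was low, as was the endothelial sum on that array, and a link between them was not tested.

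Nicotinic receptors are the targets of Slurp1 and Lynx1. Of 24 listed receptor and acetylcholine genes, 23 were on the array and 9 passed the filter. Both Ezh2cKO arrays lay above WT for 0 of the 9 and below WT for 1, where 8.52% of all genes lay above and 8.39% below. This was Chrnb3, a receptor subunit, at 45.5 and 91.1 in Ezh2cKO, against 103 and 97.0 in WT (log2 -0.51, SE 0.54). Its Ezh2cKO mean of 68.3 lay below the filter's level, so it was kept only through its WT mean of 99.9. Chrnb2, another subunit, had 98.3 and 161 in Ezh2cKO, against 85.3 and 98.8 in WT, Tmem35a, a receptor chaperone, had 256 and 343, against 274 and 258, and Bche, a cholinesterase, had 170 and 229, against 173 and 295. None of the 9 passed limma's adjusted threshold or an unadjusted p under 0.05, which few of all kept probe sets did (0.348% higher and 0.0592% lower).

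The GPI anchor holds most LU proteins on the membrane. Of 30 genes of its synthesis and attachment that passed the filter, both Ezh2cKO arrays lay above WT for 1 and below WT for 0. Of all genes, 8.52% lay above and 8.39% below. The median log2 difference was 0.04, and limma called 0 of the 30 at an adjusted p under 0.05 and 0 at an unadjusted one. Pigt, a subunit of the enzyme that attaches the anchor, had 1208 and 787 in Ezh2cKO, against 857 and 706 in WT. Piga, of the first step of synthesis, had 1363 and 1217 in Ezh2cKO, against 941 and 1400 in WT.

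Interferon induces Ly6a and Ly6e in many mouse cells. Of 19 interferon response genes that passed the filter, both Ezh2cKO arrays lay above WT for 0 and below WT for 1. Of all genes, 8.52% lay above and 8.39% below. The medians of the 19 were 0.01 within number 1 and 0.25 within number 2. Limma called 0 of them at an adjusted p under 0.05 and 0 at an unadjusted one. The lower gene was Ddx58, the RNA sensor RIG-I, at 449 and 495 in Ezh2cKO, against 552 and 561 in WT (log2 -0.23, SE 0.21). Irf7, a transcription factor of the response, had 100.4 and 193 in Ezh2cKO, against 83.7 and 104 in WT, and Gbp2, a guanylate-binding protein, had 78.7 and 301, against 67.8 and 167. In both, Ezh2cKO number 2, the array with the highest median signal, had the highest value of the 4 arrays.

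Slurp1, Ly6d and Lypd3 are known from the differentiating epidermis, so markers of the keratinocyte layers were counted too. Of 24 late differentiation genes that passed the filter, 16 had both Ezh2cKO arrays above WT and 0 had them below. Of all genes, 8.52% lay above and 8.39% below. Some late genes passed the filter only through their Ezh2cKO signal, which raises the count and the medians. Flg had a mean of 26.6 in WT and 177 in Ezh2cKO, and Lce1c had 55.3 and 638. With no filter, 19 of the 30 late genes on the array lay above and 0 below. Of all non-control probe sets, 9.11% lay above and 8.23% below. The late genes that passed the filter had medians of 1.81 within number 1 and 0.64 within number 2. The summed signals of the late list were 24367 and 13923 in Ezh2cKO, against 8672 and 10074 in WT. Spinous genes had 3 of 14 higher and 0 lower, with medians of 0.05 within number 1 and 0.15 within number 2. Basal genes had 3 of 14 higher and 2 lower, with medians of 0.01 and 0.07 in the same order. Limma's adjusted threshold was passed by 0 genes of either list, and an unadjusted p under 0.05 by 13 late genes and 0 spinous ones. The late list was known from earlier results of these data to be higher in Ezh2cKO, and its part in the members' differences was not tested.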

How the data were processed

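The deposited files hold signal intensities that the authors made with MAS5, per the submitters' processing notes, which name no version. They give 1 linear value for each probe set on each array. All arrays had a 2% trimmed mean of 500.0, so the authors' scaling was kept. Arrays were grouped by their titles. The table had 64 controls and 45037 other probe sets, of which 34945 had 1 symbol, 932 several and 9160 no listed gene. Symbols were updated through the gene identifier (34741 matches to RefSeq, GRCm38.p6, which otherwise gave gene order and the promoter). The upper 60% of probe sets by mean signal were kept, and a gene's brightest kept probe set stood for it. Limma 3.58.1 in R 4.3.3 fitted log2(signal + 16) by genotype, with an intensity trend, no block and Benjamini-Hochberg adjustment. It was run on simulated data too, but their spread came from the fit with a block and they held no effect of array number. That run therefore does not show how the fit performs on these arrays. The members and lists were chosen with earlier results of these data known. Named list genes were the 4 with the largest moderated t (2 for keratinocyte lists, the brightest gene for other cell types), of which some are printed, and neighbours were taken by position. Alternatives changed the pseudocount (1 and 64), the filter (none, or the upper 40%), the scaling (quantile, or a common median), the trend, the threshold (0.1), the block (array number) or the probe sets averaged per gene, or left an array out. The number of arrays limits the precision.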

Additional observations from a re-analysis of the deposited data

How the results depend on the processing

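Leaving out an array turned the sign of 5 genes. Ly6d was at -0.24 to 1.12, Lypd3 at -0.35 to 0.79, Ly6e at -0.13 to 0.36, Lynx1 at -0.04 to 0.60 and Ly6k at -0.36 to 0.11, while Slurp1 (0.16 to 0.86) and Ly6m (0.05 to 0.54) stayed above 0. Ly6d and Lypd3 were below 0 without WT replicate 2 or Ezh2cKO replicate 1, which leaves unequal array numbers in the genotypes. The count of members higher in both Ezh2cKO arrays, 1 of 7, was 0 of 4 in the upper 40% of probe sets, where Slurp1 was no longer kept, and 2 of 7 with quantile normalization or scaling to a common median. With an array left out, fewer values have to be separated, so such a count cannot fall, for these or any other genes. The members' count is therefore not given for those settings. That of the other LU family genes follows, with no share of all genes beside it, so nothing is read from its rise with an array left out. The count of other LU family genes, 2 of 13, was 4 of 27 with no filter, 1 with median scaling, 1 when kept probe sets were averaged per gene, and 3 to 8 with an array left out (8 with Ezh2cKO number 1 absent, 6 with WT number 1 and 5 with WT number 2). The number of probe sets called in limma, 0, was 6 with the array number as a block, none of them an LU family gene of the list, and 0 to 52 with an array left out (27 with Ezh2cKO number 2 absent, 2 with WT number 1 and 52 with WT number 2), which assumes that a lone array varies like the rest. Same-numbered arrays deviated together from their genotype means (r = 0.77 across 27022 probe sets, from 2 pairs), but the labels do not say that a number marks a shared litter or day. At an unadjusted p under 0.05, limma had 110 probe sets, against 1353 with the block, 504 of 45037 with no filter, and 185 (Ezh2cKO number 1 absent), 909 (Ezh2cKO number 2), 220 (WT number 1) and 437 (WT number 2) with an array left out. No detection call was used, so signals near the filter's level may hold mostly background.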

Other observations

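Ly6g6g, which lies next to Ly6d on chromosome 15, was dim but differed by array number in the way Ly6d did. It had 79.7 and 14.0 on the Ezh2cKO arrays numbered 1 and 2, against 63.2 and 13.6 on the WT arrays. It was 3.20-fold higher in number 1 in Ezh2cKO and 2.67-fold higher in WT, on the log2(signal + 16) scale, and its mean signal lay below the filter. It was named after its values were seen.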
